A study of Mus musculus with 6 samples.

Results

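Nucleoside transporters are the carriers that move nucleosides, the sugar-linked bases released from digested or degraded nucleic acids, across cell membranes. The family described here was chosen by gene symbol: the 3 concentrative carriers Slc28a1, Slc28a2 and Slc28a3 and the 3 equilibrative carriers Slc29a1, Slc29a2 and Slc29a3, 6 of the 24594 genes in the count table. It was proposed with the read counts of NIBR-LTSi against DMSO in view. The members' values in that contrast are therefore a description. Their calls and intervals are printed to show size and precision, and support nothing about the family.

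The samples were mouse small-intestinal organoids, cultures of epithelium that form crypt-like and villus-like regions. They were raised from single cells for 96 h and then given either 5 uM NIBR-LTSi, an inhibitor of the Hippo pathway kinases LATS1 and LATS2, or the matching amount of the solvent DMSO, for 24 h. Each group has 3 RNA sequencing libraries, and no genotype, strain, age or donor animal is given in the labels. Total counts ran from 18395427 to 25238809 with DMSO and from 19323994 to 26767043 with NIBR-LTSi. All 12 enterocyte markers were detected, with a summed level of 36700 to 43620 CPM over the 6 libraries. Markers of other tissues were low beside these. The 6 fibroblast markers summed to at most 0.189 CPM, with Dcn and Lum at 0, and the 5 endothelial markers to at most 0.803 CPM, with Cdh5, Kdr and Emcn at 0. The 6 immune markers summed to 3.20 to 5.19 CPM, with Cd3e at 0. Csf1r averaged 1.72 CPM with DMSO and 2.23 with NIBR-LTSi, Cd68 1.64 and 1.55, and Lyz2 0.752 and 0.375. The immune sum was above the DMSO means of the 2 lowest members, Slc28a2 (0.910 CPM) and Slc29a2 (1.87 CPM).

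Concentrative carriers couple uptake to the sodium gradient and can fill a cell against a nucleoside gradient. In intestinal epithelium they face the gut lumen. CNT1 (Slc28a1) prefers pyrimidine nucleosides, CNT2 (Slc28a2) prefers purine nucleosides and also takes uridine, and CNT3 (Slc28a3) accepts both classes. Equilibrative carriers let nucleosides run down their gradient in either direction: ENT1 (Slc29a1) and ENT2 (Slc29a2) at the plasma membrane, ENT2 also carrying free bases, and ENT3 (Slc29a3) mainly in membranes inside the cell such as those of lysosomes.

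The genes lie on 6 different chromosomes of GRCm38.p6, so none of them share a promoter. Slc28a1 (Entrez 434203) spans chromosome 7, 81113269 to 81170416. Slc28a2 (Entrez 269346) spans chromosome 2, 122426357 to 122461152, and Slc28a3 (Entrez 114304) spans chromosome 13, 58553307 to 58610877. Slc29a1 (Entrez 63959) spans chromosome 17, 45585200 to 45599618. Slc29a2 (Entrez 13340) spans chromosome 19, 5019057 to 5031972, and Slc29a3 (Entrez 71279) spans chromosome 10, 60712072 to 60752849. Exons of other genes on the opposite strand cover 3.0% of the exonic bases of Slc28a3 (Gm3131) and 6.86% of those of Slc29a1 (Gm17080). Since the strand setting of the counting is not given, reads there cannot be assigned with certainty.

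The promoter windows of the 4 members whose libraries did not overlap between the groups are shown because LATS inhibition acts through YAP and TAZ, which bind DNA by way of TEAD factors. Each window runs from 250 bases before to 50 bases after a RefSeq start site, 5′ to 3′ on the gene's own strand, and capitals mark the letters GGAATG, a core of the TEAD motif, on either strand (CATTCC when read from the other one).
Slc28a2, chr2:122426185-122426484, plus strand: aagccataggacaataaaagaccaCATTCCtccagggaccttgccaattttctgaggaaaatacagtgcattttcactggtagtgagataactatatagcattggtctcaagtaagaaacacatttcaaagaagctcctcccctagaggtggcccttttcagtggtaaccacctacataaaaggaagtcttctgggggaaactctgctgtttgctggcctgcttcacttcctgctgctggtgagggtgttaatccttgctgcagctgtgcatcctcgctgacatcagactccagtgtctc
Slc29a2, chr19:5023756-5024055, plus strand: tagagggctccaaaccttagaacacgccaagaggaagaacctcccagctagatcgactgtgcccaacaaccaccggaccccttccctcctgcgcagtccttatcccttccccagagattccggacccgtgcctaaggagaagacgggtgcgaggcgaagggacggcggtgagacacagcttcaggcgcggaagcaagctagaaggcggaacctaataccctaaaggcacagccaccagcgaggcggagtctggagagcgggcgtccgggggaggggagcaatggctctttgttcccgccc
Slc28a1, chr7:81114549-81114848, plus strand: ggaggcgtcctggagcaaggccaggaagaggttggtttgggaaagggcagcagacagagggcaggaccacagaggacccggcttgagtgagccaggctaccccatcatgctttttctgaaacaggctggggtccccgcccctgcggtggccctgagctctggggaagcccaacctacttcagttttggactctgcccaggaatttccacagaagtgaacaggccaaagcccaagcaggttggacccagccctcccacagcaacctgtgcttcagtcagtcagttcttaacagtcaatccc
Slc28a3, chr13:58610828-58611127, minus strand: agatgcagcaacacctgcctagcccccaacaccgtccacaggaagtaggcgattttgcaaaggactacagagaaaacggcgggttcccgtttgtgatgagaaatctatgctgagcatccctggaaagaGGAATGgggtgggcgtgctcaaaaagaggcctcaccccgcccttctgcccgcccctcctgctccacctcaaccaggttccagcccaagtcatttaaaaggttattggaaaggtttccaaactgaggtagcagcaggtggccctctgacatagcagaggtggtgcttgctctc

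The GGAATG letters occurred once in the Slc28a2 window, at -226 from the start site on the opposite strand, and once in the Slc28a3 window, at -122 on the gene's strand. They were not found in the windows of Slc29a2 and Slc28a1. Both of those windows lie inside the gene spans given above, downstream of the first base, and the sequence before that base was not searched. The Slc29a3 window held them once, and 2 of the 8 windows of Slc29a1 held them. Over all 32851 promoter windows of the same length 14.7% held these letters on at least 1 strand, and over the 12781 windows of tested genes 12.4% did. The AP-1 letters TGANTCA, searched on both strands, were in no window of the 6 members and in 5.27% of the windows of tested genes. A match is a stretch of letters and not a measured binding site, and its absence speaks only of this window.

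With NIBR-LTSi, the purine-preferring carrier gene Slc28a2 was 7.69-fold higher and the equilibrative carrier gene Slc29a2 1.63-fold higher. The pyrimidine-preferring Slc28a1 and the broad Slc28a3 were 1.56-fold and 1.36-fold lower. Slc29a1 and Slc29a3 differed by less than the spread between libraries. In the edgeR fit over all genes 2 of the 6 members were called higher, 2 lower and 2 not called. Over all 12592 tested genes 42.0% were called, 22.8% higher and 19.2% lower. Of those calls 54.2% were higher, beside 50.3% with DESeq2 size factors and 64.1% with library totals only. All 6 members passed the filter on low counts. Their median log2 fold change was 0.08, beside 0.02 over all tested genes, and it lies between members that differed in opposite directions. The groups' libraries did not overlap for 4 of the 6, and for 52.5% of all tested genes.

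**Figure D1:**
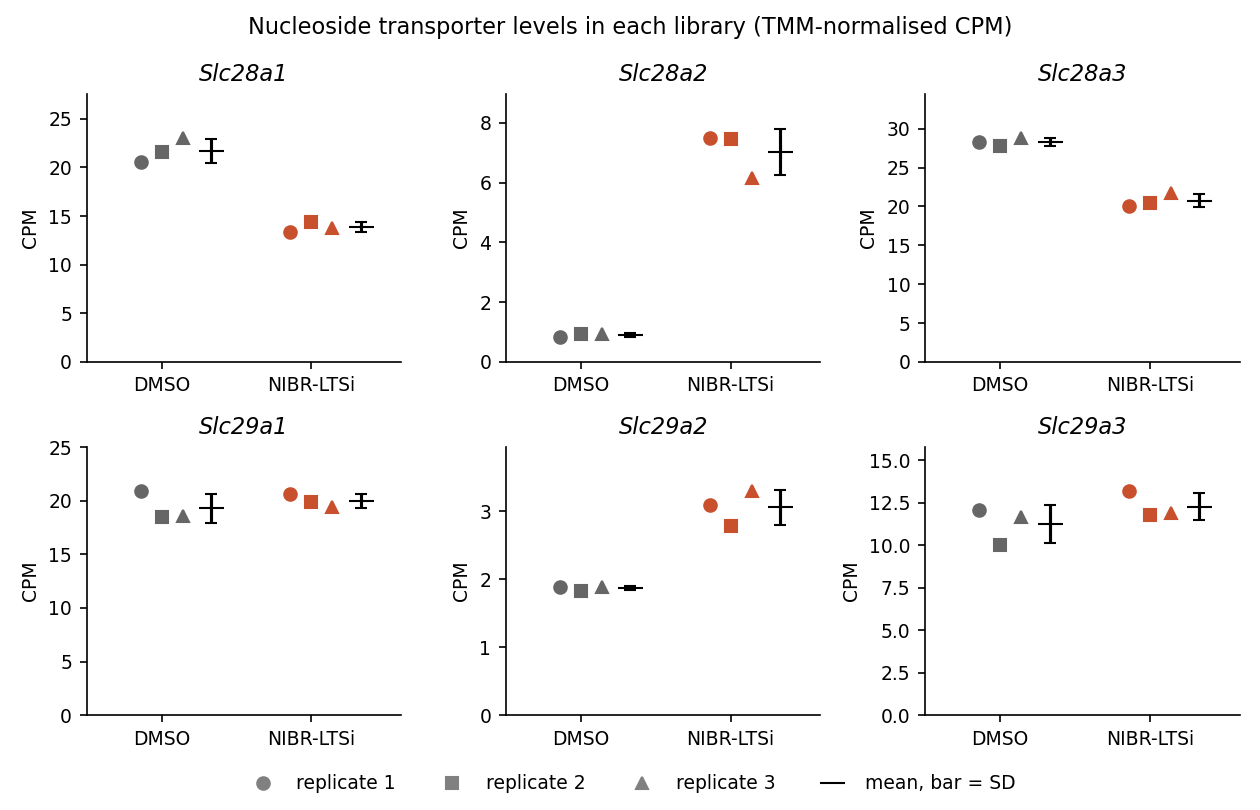
Level of each nucleoside transporter in the 6 libraries (TMM-normalised CPM, each panel from 0; symbols are replicates, horizontal bars the mean and vertical bars the SD, n = 3). Slc28a2 moved from 0.841 to 0.945 CPM with DMSO to 6.14 to 7.49 CPM with NIBR-LTSi, while the libraries of Slc29a1 and Slc29a3 overlap between the groups.

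Among the concentrative carriers, Slc28a2 was nearly silent in control organoids, with 21, 17 and 20 reads in DMSO replicates 1 to 3. With NIBR-LTSi it had 145, 182 and 168 reads. Scaled to library size these are 0.841, 0.944 and 0.945 CPM with DMSO and 7.49, 7.45 and 6.14 CPM with NIBR-LTSi. Every NIBR-LTSi library was therefore more than 6 CPM and every DMSO library less than 1 CPM. The mean went from 0.910 ± 0.060 to 7.02 ± 0.76 CPM (SD, n = 3), a log2 fold change of 2.94 ± 0.17 (SE). From the group totals of 58 and 495 reads, the ratio was 7.69 with a 95% interval of 5.85 to 10.3 (exact Clopper-Pearson on the share of reads), which covers counting error only. Slc28a2 had the highest log2 fold change of the 254 tested genes whose symbol begins with Slc and a number, of which 48 were called higher and 102 lower. It ranked 21 among all 12592 genes.

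Slc28a2 has a close relative, Slc28a2b (Entrez 381417; chromosome 2, 122484941 to 122528040), which lies downstream on the same strand. Their coding sequences, each 1980 bases long, were identical at 94.8% of 1979 aligned bases, and 35.4% of the 50-base windows of Slc28a2 transcripts also occur in Slc28a2b. Counting could have split or dropped such reads, so the level of Slc28a2 is uncertain to that extent. Slc28a2b had no read in any DMSO library and 5, 7 and 1 reads in NIBR-LTSi replicates 1 to 3. It was below the filter and was not tested. Set against an assumed 3 reads over the DMSO group, the 13 reads gave a ratio of 3.91, and 2.75 without NIBR-LTSi replicate 2. The counting error of the 13 reads is not part of these ratios, so they are not lower limits. How reads common to both genes were counted is not given in the sources used here. Their part in the values of either gene was not tested.

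Slc28a1, the gene of CNT1, was at 20.5, 21.6 and 23.0 CPM in the DMSO libraries and at 13.4, 14.4 and 13.8 CPM in the NIBR-LTSi libraries. The lowest control was more than 6 CPM above the highest treated library. Its mean was 21.7 ± 1.2 and 13.9 ± 0.5 CPM (log2 fold change -0.64 ± 0.07). Slc28a3, the gene of CNT3, was at 28.3, 27.8 and 28.8 CPM with DMSO and at 20.0, 20.5 and 21.7 CPM with NIBR-LTSi. Here too every treated library was below every control (28.3 ± 0.5 and 20.7 ± 0.9 CPM, log2 fold change -0.45 ± 0.06). Within the sodium-coupled group, the CNT2 gene was thus higher in every treated library and the CNT1 and CNT3 genes lower.

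Summed enterocyte markers were also lower with NIBR-LTSi, at 36700 to 39320 CPM against 42570 to 43620 CPM with DMSO. Of these 12 markers 5 were called higher and 6 lower (91.7%, beside 42.0% of all tested genes), and none was at 0. Their part in the lower Slc28a1 and Slc28a3 was not tested. In bulk RNA, fewer cells of a type and less RNA per cell cannot be told apart.

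Of the equilibrative carriers, Slc29a2 was low in all libraries, at 1.88, 1.83 and 1.89 CPM with DMSO and 3.10, 2.78 and 3.29 CPM with NIBR-LTSi. The lowest treated library was above the highest control. Its log2 fold change was 0.71 ± 0.18, and the ratio of 218 to 120 reads gave a 95% interval of 1.30 to 2.06 for counting error. Summed proliferating-cell markers, none of them at 0, went from 413 to 450 CPM with DMSO to 651 to 726 CPM with NIBR-LTSi. Of these 6 markers 5 were called higher, beside 22.8% of all tested genes, and Mki67 was not called (edgeR adjusted p = 0.0694). Their part in the Slc29a2 difference was not tested.

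Slc29a1, the gene of ENT1, was at 20.9, 18.4 and 18.6 CPM with DMSO and 20.6, 19.8 and 19.4 CPM with NIBR-LTSi. The highest single value was a control library, and the log2 fold change of 0.04 ± 0.07 was smaller than its error. The 95% interval of its ratio, 0.947 to 1.10, covers counting error only and leaves out the spread between libraries. Slc29a3, the gene of the intracellular carrier ENT3, was at 12.1, 9.999 and 11.7 CPM in the controls and at 13.2, 11.8 and 11.9 CPM in the treated libraries. DMSO replicate 2 was the lowest and NIBR-LTSi replicate 1 the highest, and the remaining 4 libraries lay between 11.7 and 12.1 CPM (log2 fold change 0.12 ± 0.09).

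Levels of different genes were compared as CPM per kilobase of gene width, which is all exonic bases of a gene. Such comparisons depend on the length used: the width exceeds the longest coding transcript most for Slc28a3 (7902 against 4567 bases) and Slc29a1 (4008 against 2092 bases). In control organoids the order was Slc28a1 (7.36 ± 0.42), Slc29a1 (4.82 ± 0.34), Slc28a3 (3.58 ± 0.06), Slc29a3 (1.93 ± 0.19), Slc29a2 (0.619 ± 0.010) and Slc28a2 (0.216 ± 0.014; SD, n = 3). No neighbours in this order overlapped in their libraries. Per kilobase of transcript, an alternative chosen after seeing the data, Slc29a1 (9.23 ± 0.65) came before Slc28a1 (7.49 ± 0.43) and Slc28a3 (6.19 ± 0.11), and the lower 3 kept their places. Which gene led in control organoids therefore depended on the length, while Slc28a2 was the lowest of the 6 with either one. Among all tested genes, 55.5% had a lower per-length level than Slc28a1 and 5.59% a lower one than Slc28a2.

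With NIBR-LTSi the order became Slc29a1 (4.98 ± 0.16), Slc28a1 (4.70 ± 0.18), Slc28a3 (2.62 ± 0.11), Slc29a3 (2.10 ± 0.13), Slc28a2 (1.67 ± 0.18) and Slc29a2 (1.01 ± 0.09 CPM per kilobase). The libraries of Slc29a1 and Slc28a1 overlapped on this scale, and all other neighbours were apart. Per kilobase of transcript the order of the means was the same, but Slc29a1 (9.54 ± 0.31) stood clear of Slc28a1 (4.78 ± 0.18), whose libraries overlapped those of Slc28a3 (4.54 ± 0.19). Slc28a2 had passed Slc29a2 and stood above 24.3% of tested genes. The per-length ratio of Slc28a2 to Slc28a1 was 0.0287, 0.0307 and 0.0288 in the DMSO libraries and 0.393, 0.363 and 0.312 in the NIBR-LTSi libraries. The purine-preferring carrier therefore remained below the pyrimidine-preferring one in every library.

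**Figure D2:**
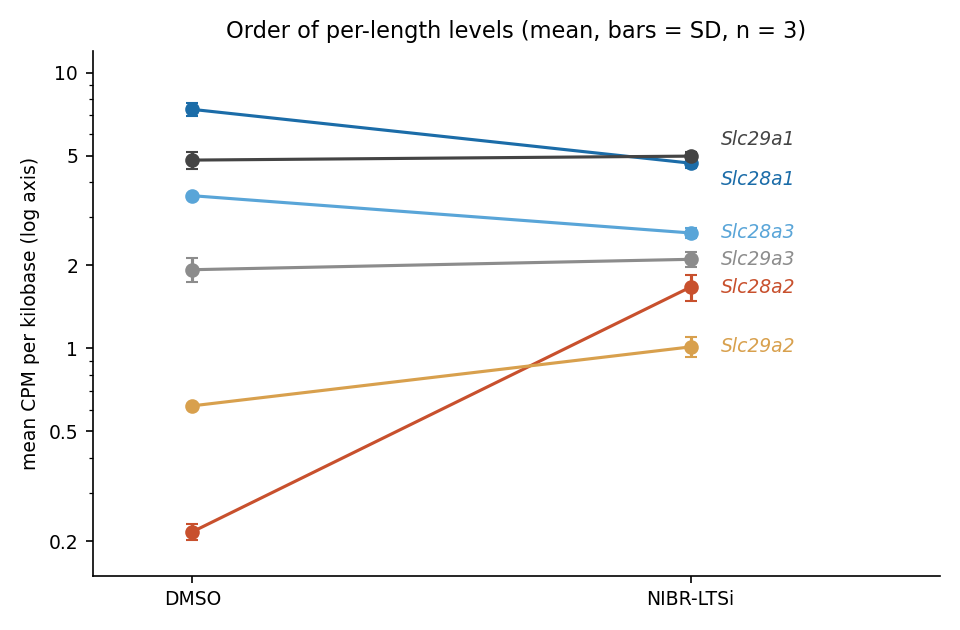
Mean per-length level of each transporter in the 2 groups (CPM per kilobase of gene width on a log axis; bars are the SD, n = 3). The line of Slc28a2 climbs from 0.216 to 1.67 and crosses that of Slc29a2, and Slc28a1 comes down from 7.36 to 4.70, beside Slc29a1 at 4.98.

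Added over the 6 genes, the per-length level was 18.5 ± 0.5 CPM per kilobase with DMSO and 17.1 ± 0.2 with NIBR-LTSi. Slc28a1 contributed a difference of -2.66, Slc28a3 one of -0.96 and Slc28a2 one of 1.45 CPM per kilobase, so the gain in Slc28a2 was smaller than the loss in Slc28a1. The 3 concentrative genes together held 60.2% ± 2.3 of the family's per-length level with DMSO and 52.6% ± 1.4 with NIBR-LTSi. Per kilobase of transcript these shares were 53.5% ± 2.3 and 46.0% ± 1.3, lower in each group and with the same direction between them. Slc28a2 alone held 1.17% ± 0.09 with DMSO and 9.76% ± 0.95 with NIBR-LTSi, and Slc28a1 held 39.7% ± 2.1 and 27.5% ± 1.2 (per kilobase of transcript, 0.896% and 7.43% for Slc28a2 and 28.8% and 19.8% for Slc28a1). These are shares of transcript levels and not of transport capacity.

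**Figure D3:**
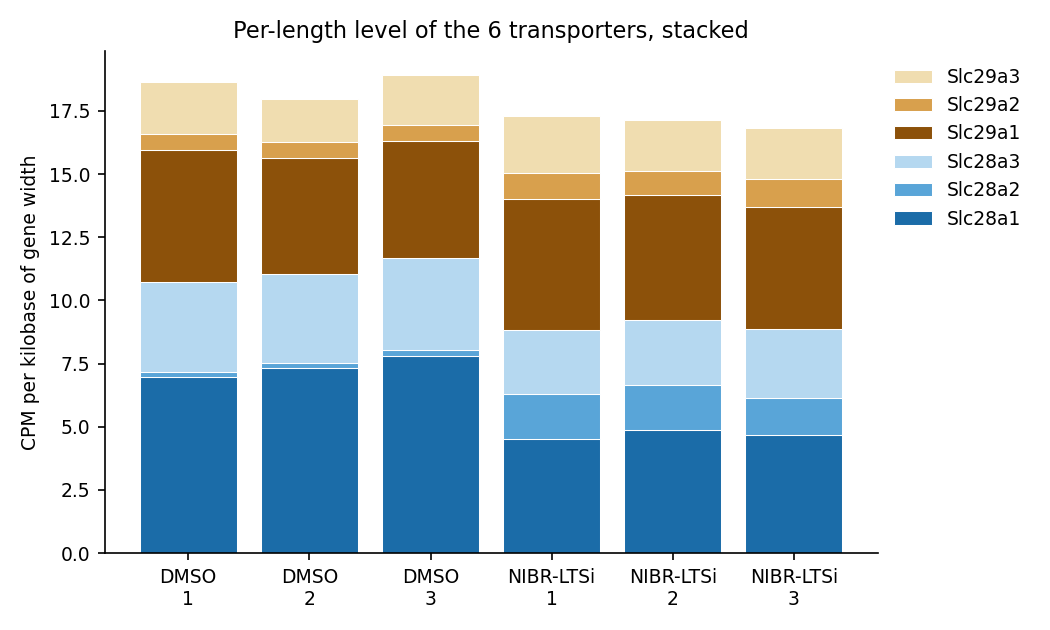
Per-length levels of the 6 transporters stacked for each library (CPM per kilobase of gene width, from 0; blue, concentrative; brown, equilibrative). The Slc28a2 segment is a thin line in the DMSO bars and a visible band in the NIBR-LTSi bars, and the Slc28a1 segment is shorter in the latter.

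The sequences of the members were compared to ask how well their reads can be told apart. No 50-base window of their transcripts was shared between any pair of the 6. Slc28a1 and Slc28a2 were identical at 71.4% of aligned coding bases, Slc28a2 and Slc28a3 at 65.0%, and Slc29a1 and Slc29a2 at 65.7%. Between a concentrative and an equilibrative gene, which are unrelated families, the same alignment gave 63.7% to 66.4%. Only the Slc28a1 and Slc28a2 pair among the members was above that range. Bases opposite gaps are left out of these percentages. Fewer bases aligned between the families (1307 to 1387) than among the 3 concentrative members (1903 to 1914). The percentages therefore do not rank how closely the other members are related.

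For each member the genes of most similar profile over the 6 libraries were listed by Pearson correlation of log2 CPM. Slc28a2 was most like Elovl5 (r = 0.9996) and Gstcd (0.9994), Slc28a1 most like Epb41l3 (0.9993) and Rtn4rl1 (0.9984), and Slc28a3 most like Synpo and Relb (0.9994 each). Slc29a2 was most like Sgo2a (0.9989) and Supt16 (0.9973). These values follow from the separation of the groups and single out little: 1158 of 9652 genes were above 0.95 for Slc28a2, and 789 of 9651 for Slc28a1. Slc29a1, most like Timm44 (0.966) and Rab29 (0.958), had 3 genes above 0.95, and Slc29a3, most like Cdkal1 (0.992) and Mtmr9 (0.986), had 10.

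Genes that act around the transporters were read from the same fit. In 7 lists with 56 genes, 46 were tested, 14 were called higher and 11 lower (54.3%, beside 42.0% of all tested genes), and 21 were not called. Their median log2 fold change was 0.05. All adjusted p-values below are from edgeR's quasi-likelihood test, with levels as mean ± SD of 3 libraries per group.

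Other carriers of nucleosides, bases and nucleotides were mostly not called: 1 of 6 tested was lower and none higher (16.7%, beside 42.0% of all tested genes). Slc29a4, the gene of a further equilibrative carrier that takes monoamines as well as adenosine, averaged 0.727 ± 0.168 CPM in controls and 0.717 ± 0.232 CPM after treatment (adjusted p = 0.986 for a log2 fold change of -0.01 ± 0.34). The sign of this small difference was positive on raw library totals, and also when DMSO replicate 3, NIBR-LTSi replicate 1 or NIBR-LTSi replicate 3 was left out. Panx1, which encodes a channel that releases ATP, fell 1.39-fold to 18.9 ± 1.0 CPM (-0.47 ± 0.07 on the log2 scale, adjusted p = 1.27e-04).

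Enzymes that turn extracellular nucleotides into nucleosides were called in 5 of 7 tested cases (71.4%, beside 42.0% of all tested genes), 3 higher and 2 lower. Akp3, an intestinal alkaline phosphatase, rose 2.91-fold, with 50.7 ± 3.6 CPM in controls and 148 ± 2 CPM after treatment (1.54 ± 0.05 on the log2 scale, adjusted p = 1.59e-09). Its relative Alpi rose from 1581 ± 29 to 1930 ± 37 CPM, and these related genes share 1.57% of the 50-base windows of Akp3 transcripts. Enpp1, a pyrophosphatase that makes AMP from ATP, rose from 13.6 ± 1.3 to 24.8 ± 1.5 CPM. The ATP- and ADP-cleaving ectoenzymes Entpd8 and Entpd2 fell 1.68-fold (96.3 ± 5.9 to 57.1 ± 7.1 CPM) and 1.27-fold. Nt5e, the gene of the 5′-nucleotidase CD73 that releases adenosine, was named after its values were seen: it was at 0.861 ± 0.277 and 1.37 ± 0.03 CPM (adjusted p = 0.0771, and 0.0315 without DMSO replicate 3). Of 2 tested adenosine receptor genes 1 was called (50%, beside 42.0% of all tested genes). Adora1, a receptor that lowers cyclic AMP, rose from 10.3 ± 0.2 to 17.1 ± 0.6 CPM (0.73 ± 0.07 on the log2 scale, adjusted p = 9.47e-06), and Adora2a was not called.

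Of 8 kinases that trap imported nucleosides as monophosphates, 4 were called higher and none lower (50%, beside 42.0% of all tested genes). Uckl1 was called lower in DESeq2 (log2 fold change -0.31, adjusted p = 0.0126) and Uck1 without DMSO replicate 3 (-0.21, edgeR adjusted p = 0.0184). The thymidine kinase gene Tk1, which is switched on in S phase, rose from 18.8 ± 1.1 to 32.5 ± 1.0 CPM (on the log2 scale 0.79 ± 0.06, adjusted p = 1.51e-06). Adenosine kinase (Adk) rose 1.24-fold, deoxycytidine kinase (Dck) 1.29-fold and the uridine and cytidine kinase Uck2 1.14-fold. The summed level of the proliferation markers given above was also higher with NIBR-LTSi, and their part in these values was not tested. Of the 3 salvage enzymes that rebuild nucleotides from free bases, 1 was called (33.3%, beside 42.0% of all tested genes). Aprt, which uses adenine, rose 1.18-fold, and Hprt and Uprt were not called.

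The enzymes that break nucleosides down were called in 9 of 13 tested cases (69.2%, beside 42.0% of all tested genes), 3 higher and 6 lower. Those that act on pyrimidines were set apart after the values were seen. Of these, 5 of 6 tested were called lower, beside 19.2% of all tested genes. Upp2 was not called (log2 fold change 0.18 ± 0.31, adjusted p = 0.678), and Dpys, with no read in any library, was not tested. Uridine phosphorylase (Upp1) went from 30.4 ± 0.8 to 19.8 ± 0.7 CPM (on the log2 scale -0.62 ± 0.06, adjusted p = 7.10e-06). Cytidine deaminase (Cda) fell from 376 ± 22 to 285 ± 2 CPM and dihydropyrimidine dehydrogenase (Dpyd), the first step of uracil and thymine breakdown, from 423 ± 13 to 321 ± 9 CPM. Thymidine phosphorylase (Tymp) fell 1.29-fold and beta-ureidopropionase (Upb1) 1.41-fold, the latter call being lost when DMSO replicate 1 (adjusted p = 0.0597), DMSO replicate 2 (0.104) or NIBR-LTSi replicate 2 (0.0784) was left out.

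Enzymes that act on purines were mixed. Adenosine deaminase (Ada) rose from 10.1 ± 1.6 to 18.6 ± 0.7 CPM (on the log2 scale 0.88 ± 0.10, adjusted p = 3.36e-05), and Mtap, which splits methylthioadenosine to recover adenine, rose 1.91-fold (0.93 ± 0.06 on the log2 scale, adjusted p = 3.88e-07). Guanine deaminase (Gda) rose 1.13-fold, a call lost without DMSO replicate 1 (adjusted p = 0.0625) and without NIBR-LTSi replicate 1 (0.0620). Xanthine dehydrogenase (Xdh), which makes uric acid, fell 1.19-fold. Pnp and Pnp2, which share 28.5% of the 50-base windows of Pnp2 transcripts and 11.0% of those of Pnp, so that some reads could have been split by the counting, were not called, and neither was Adal. The division of the list into pyrimidine and purine enzymes was made after the values were seen, as was the naming of Tymp, Upb1, Upp2, Dpys, Gda, Xdh, Pnp, Pnp2 and Adal, and no test of the division was made.

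Inside the cell, nucleotidases and related enzymes return nucleotides to nucleosides. Of 7 tested, 2 were called higher and 2 lower (57.1%, beside 42.0% of all tested genes). Samhd1, which cleaves deoxynucleoside triphosphates to deoxynucleosides, fell from 149 ± 1 to 101 ± 1 CPM (on the log2 scale -0.55 ± 0.04, adjusted p = 3.99e-07), and Nt5c fell 1.23-fold. The mitochondrial Nt5m and the cytosolic Nt5c2 rose 1.16-fold and 1.11-fold. The Nt5m call was lost in DESeq2 and without DMSO replicate 2, NIBR-LTSi replicate 1 or NIBR-LTSi replicate 3 (adjusted p of 0.0691 to 0.0939). The Nt5c2 call was lost with DESeq2 size factors, in DESeq2, with the replicate block and when any 1 library other than DMSO replicate 3 was left out (adjusted p of 0.0519 to 0.184).

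**Figure D4:**
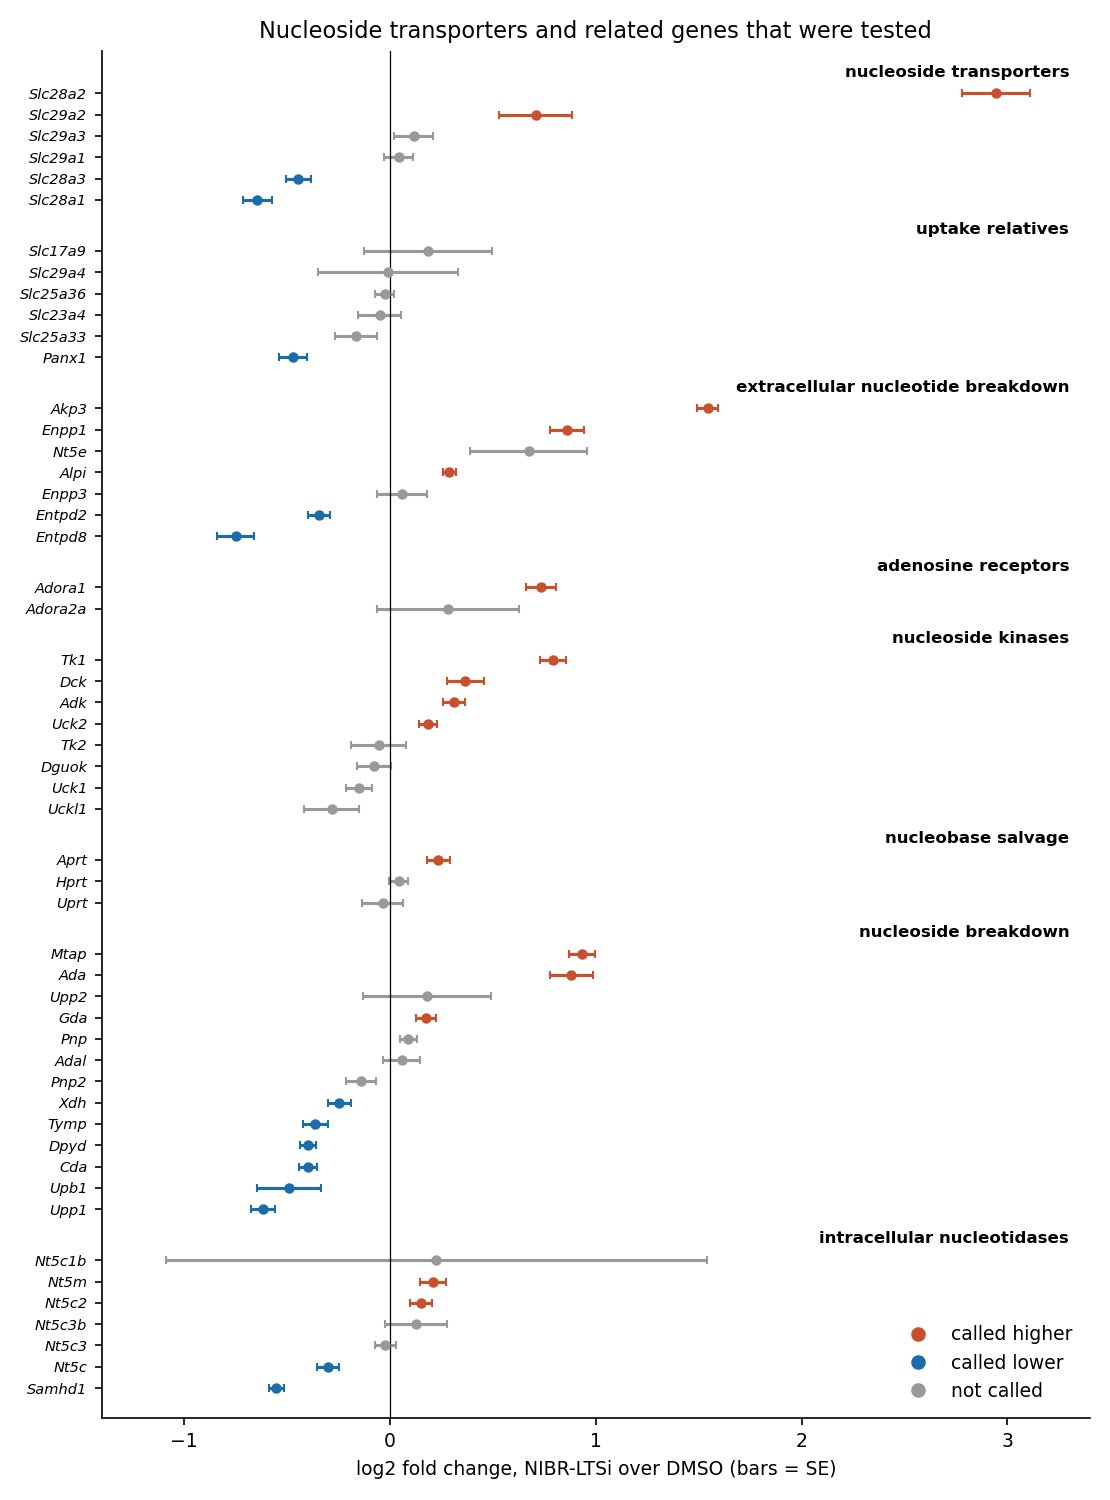
Log2 fold change of NIBR-LTSi over DMSO (bars are the SE) for the 6 transporters and the 46 tested related genes, grouped by role; red was called higher, blue lower and grey not called in edgeR's quasi-likelihood test. Slc28a2 stands at 2.94, and Akp3 at 1.54 is the next highest gene plotted.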

How the data were processed

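Per the labels' protocols, RNA was purified from organoids that had been digested to single cells, and 200 ng per sample entered a stranded messenger RNA library kit. The authors deposited 1 table of whole-number read counts per gene for 6 libraries. Per the submitters' processing notes the build was mm10 and edgeR was used; aligner, counter and strand setting: not given in the sources used here. The deposited gene width equals the exonic bases of the GENCODE M21 gene models for all 6 transporters, Slc28a2b and Slc29a4.

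Counts were scaled by TMM and filtered with filterByExpr, which left 12592 of 24594 genes. The test was edgeR's quasi-likelihood F-test (edgeR 4.0.16, R 4.3.3; robust, two-sided, group as the only term), with p-values adjusted over all tested genes by Benjamini-Hochberg. A gene is called at an adjusted p under 0.05. Standard errors were taken as the size of the log2 fold change over the root of F. Levels are CPM (counts relative to the TMM-scaled library total), or CPM per kilobase of gene width where genes are compared with each other. Total counts of 18395427 to 26767043 per library set the precision. The procedure was tested on simulated data with 200 changed genes among 12592. It made 182 calls, of which 8 were false. Recovery was 85.1% of genes changed 1.5-fold, 79.1% at 2-fold and 97.0% at 4-fold, so it did not rise steadily with the fold. The simulation changed far fewer genes than the 5287 called in these data. Its rates of false calls and recovery therefore need not hold for the calls given here. Whether the replicates came from separate cultures is not in the labels. The p-values therefore rest on the spread among these libraries alone, and that spread may be technical.

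The 6 members, the 7 lists of related genes and the tests were chosen with earlier results of these data known. Related genes were named where called, at most 5 per list by smallest p, plus Slc29a4 and Slc28a2b; others named were chosen after their values were seen. Promoters (RefSeq, GRCm38.p6, the assembly of mm10) were found for all 6 members. Coding sequences of the longest model (GENCODE M21) were aligned end to end with Biopython 1.88 (match 2, mismatch -1, gap opening -5, gap extension -0.5). The alternatives were limma-voom (limma 3.58.1), DESeq2 (1.42.0), other scalings and filters, the replicate number as a block, and leaving out each library; transcript length in place of gene width was added after seeing the data.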

Additional observations from a re-analysis of the deposited data

How the results depend on the processing

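Given as a description of the 6 transporters over the 14 alternatives of scaling, filter, test and libraries, the log2 fold change ranged from 2.88 to 3.03 for Slc28a2, from 0.64 to 0.76 for Slc29a2, from -0.69 to -0.60 for Slc28a1 and from -0.49 to -0.40 for Slc28a3. None of these changes the length used to compare genes. With transcript length in place of gene width, an alternative chosen after seeing the data, 4 of the 6 genes kept their rank with DMSO and 6 with NIBR-LTSi, and the concentrative genes held 53.5% and 46.0% of the summed level instead of 60.2% and 52.6%. Among the related genes, the log2 fold change of Slc29a4 turned to 0.03 with library totals only, to 0.17 without DMSO replicate 3, to 0.07 without NIBR-LTSi replicate 1 and to 0.16 without NIBR-LTSi replicate 3 (range -0.32 to 0.17 when a library was left out); its level near 0.7 CPM limits it. With no filter on low counts 2 carriers outside the family were called instead of 1, the added one being Slc28a2b. Calls among the intracellular nucleotidases were 2 instead of 4 in DESeq2 and 2 to 4 when a library was left out. With the replicate number as a block, 4945 genes were called in all instead of 5287. Deviations of same-numbered libraries from their group means correlated at r of 0.0348, -0.337 and 0.574 for numbers 1 to 3. Differently numbered libraries ranged from -0.571 to 0.545. With 3 libraries per group these values cannot decide whether the numbers pair the samples. The labels state no batch shared by a number, so the main fit had no block. Without any 1 library, 4212 to 5105 genes were called.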

Other observations

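The median promoter window of tested genes held 20 CpG and 60.3% G and C. The Slc28a2 window held 1 CpG and 46.7% G and C, with 7.99% of tested genes' windows lower in G and C. Slc28a1 held 4 CpG, Slc28a3 held 8, the windows of Slc29a2 and Slc29a3 held 20 and 18, and the 8 windows of Slc29a1 held 3 to 30.

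The nearest tested genes on each side of Slc28a2 were 57210 and 169473 bases away: Shf on the left had a log2 fold change of 0.01 ± 0.17 (edgeR adjusted p = 0.973), and Spata5l1 on the right rose by 0.40 ± 0.12 (adjusted p = 0.0163). Beside Slc28a1, which was lower, Zfp592 (-0.09 ± 0.06, adjusted p = 0.232) and Pde8a (-0.14 ± 0.33, adjusted p = 0.772) were not called. Beside Slc28a3, which was also lower, Agtpbp1, 838657 bases away, rose by 1.76 ± 0.08 (adjusted p = 1.61e-08) and Rmi1 was not called. Beside Slc29a2, which was higher, Mrpl11 rose by 0.31 ± 0.06 (adjusted p = 0.00185) and B4gat1 was not called. Hsp90ab1 beside Slc29a1 rose by 0.23 ± 0.03 (adjusted p = 1.10e-04) and Vsir beside Slc29a3, 281778 bases away, by 1.12 ± 0.19 (adjusted p = 4.82e-04), while Tmem63b and Unc5b on their other sides were not called. These neighbours were looked up after the transporters' values were known.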
